A study of Homo sapiens with 10 samples.

Results

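The genes described are the 3 Tribbles pseudokinases, TRIB1, TRIB2 and TRIB3, and COP1, the ubiquitin ligase they recruit, which are 4 of the 23415 gene symbols found in either of the study's tables. They were chosen by name, and the family was picked because TRIB2 had already been seen to respond differently in the 2 cell lines, so the change of TRIB2 within each line and between the lines is described and not tested. RNA was sequenced from Kasumi-1, a human acute myeloid leukaemia line with the RUNX1-RUNX1T1 fusion, and from NB4, a human acute promyelocytic leukaemia line with the PML-RARA fusion. Cells had been kept for 48 hours with 1 µM JOA, known here only by that code name, or with a control whose composition the labels do not give. There were 3 libraries of each group in Kasumi-1 and 2 of each in NB4. All groups are established cultures of 1 line each, with no further allele in the labels. The source label of the treated NB4 libraries names I13, while their titles and agent name JOA, and they are called JOA below.

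Tribbles proteins keep the fold of a kinase but have little or no catalytic activity. They act as scaffolds: the pseudokinase domain holds a substrate, and a short motif in the C-terminal tail binds COP1, which then marks the substrate for degradation together with DET1, DDB1 and a CUL4 scaffold. In myeloid cells the best known substrate of TRIB1 and TRIB2 is the transcription factor C/EBPα, which drives granulocytic differentiation, and either protein causes acute myeloid leukaemia in mice when overexpressed. TRIB3 is a stress gene, induced by ATF4 and CHOP, that binds AKT and does not degrade C/EBPα. RNA levels say nothing direct about these protein events.

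The coding ends of TRIB2 and TRIB3 are shown because the transcripts measured in NB4 differ in them. Each run is the last 90 coding bases before the stop codon, from GENCODE on GRCh38, plus strand. Capitals mark, in TRIB2, the 15-base COP1-binding motif in frame and, in TRIB3, the 12-base core of that motif, which is its last 4 codons.
TRIB2-201, chr2:12740702-12740791: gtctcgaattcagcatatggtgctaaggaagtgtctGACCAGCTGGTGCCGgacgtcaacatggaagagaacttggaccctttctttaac
TRIB2-203, chr2:12724732-12724821: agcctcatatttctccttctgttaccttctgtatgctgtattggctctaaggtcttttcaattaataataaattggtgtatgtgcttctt
TRIB3-201, chr20:396598-396687: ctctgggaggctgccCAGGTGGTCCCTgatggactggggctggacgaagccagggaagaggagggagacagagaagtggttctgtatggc
TRIB2-202 ends in the same bases as TRIB2-201. The motif ends 39 coding bases before the end of the coding sequence in TRIB2-201, and at the same distance in TRIB1-201. TRIB2-203 does not hold the motif, and its last 90 coding bases do not hold the core. TRIB3-201 holds the core, 63 bases before the end, and not the whole motif. Of 19669 genes with a coding transcript, 180 (0.915%) hold the motif and 1802 (9.16%) hold the core, each anywhere in frame. The share with the core in the last 90 coding bases was not counted. A match by itself is no mark of COP1 binding.

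The stretch before TRIB2 is shown because TRIB2 is the gene of the family whose RNA level moved most. It is the part of the RefSeq promoter window (GRCh38.p14) that lies before the first annotated base of the gene, plus strand, and capitals mark FOXO (TGTTTAC) and GC box (GGGCGG) letters on either strand.
TRIB2 upstream, chr2:12716686-12716888: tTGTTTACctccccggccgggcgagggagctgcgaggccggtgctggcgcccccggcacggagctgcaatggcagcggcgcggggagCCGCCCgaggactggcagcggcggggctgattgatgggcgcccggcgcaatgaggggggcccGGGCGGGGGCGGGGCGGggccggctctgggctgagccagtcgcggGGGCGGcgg
These 203 bases are 79.8% G or C, against a median of 57.1% over the first 203 bases of 27305 RefSeq promoter windows. The shares of windows below use those same first bases, which in other genes need not end at the first annotated base. The FOXO letters occur once, 202 bases before the first annotated base, and occur in 2.41% of the promoter windows. TRIB2 is a known repressor of FOXO factors. The GC box letters occur 5 times, once on the minus strand, and a pair of the plus-strand matches shares 1 base. They occur in 35.2% of windows. No match was found to the letters searched for C/EBP (TTNCNNAA, in 30.0% of windows), RUNX (TGTGGT, 9.09%), AP-1 (TGANTCA, 5.43%), E2F (TTTNNCGC, 4.92%), the E-box (CACGTG, 4.79%), the TATA box (TATAAA, 7.86%) or the composite site of ATF4 and CHOP (TGATGNAAN, 2.59%). A match is a description of these letters and not a site.

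Depth and identity bear on all values below. In Kasumi-1 the values are FPKM, reads scaled to transcript length and library size, and their steps place the 6 libraries at 91.4 to 100% of the depth of control 1. In NB4 they are TPM, a share of all transcripts per length, and the depth is unknown. Each table has its own normalisation, and levels are set side by side only within a line. RUNX1T1 stood at 17.1 to 20.2 FPKM in Kasumi-1 and at 0.0159 TPM or less in NB4, and KIT at 164 to 322 FPKM and 0.743 to 1.05 TPM. MPO, the myeloid peroxidase, was at 5289 FPKM or more in Kasumi-1 and 4679 TPM or more in NB4. In NB4 the granule genes AZU1, PRTN3 and CTSG were present, while ELANE was at 1.59 TPM or less. No row of the Kasumi-1 table could be matched to the symbol of CD34, CD33 or ELANE, and these were not analysed here in that line.

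TRIB2 was about 2-fold higher with JOA in NB4 and stayed at its control level in Kasumi-1. In NB4 it stood at 8.11 and 8.27 TPM in the controls and at 16.9 and 18.7 TPM with JOA. Both JOA libraries lay above both controls, with a gap wider than the distance within either group. Both JOA libraries lay above both controls in 32.5% of all NB4 genes tested. The means were 8.19 ± 0.114 and 17.8 ± 1.26 TPM (SD, n = 2 each), a ratio of 2.18 and a log2 change of 1.03 (SE 0.15) on the log2(TPM + 1) scale. Only 76 of the 12941 NB4 genes tested had a larger positive change than this, and the median change over all of them was 0.08. TRIB2 was chosen for its response, so this rank is a description only.

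In Kasumi-1 TRIB2 stood at 3.60, 4.38 and 3.80 FPKM in the controls and at 3.53, 4.39 and 3.50 FPKM with JOA. The groups overlapped, as in all but 23.1% of the 12130 features tested in this line, and control 2 and JOA 2 were the highest of their groups. The means were 3.93 ± 0.407 and 3.81 ± 0.502 FPKM (SD, n = 3 each), a log2 change of -0.04 (SE 0.11). Within the same-numbered pairs the changes were -0.02, 0.00 and -0.09. The whole reads that fit these values were 299, 352 and 288 in the controls and 269, 341 and 267 with JOA. The exact 95% Poisson interval of the 299 reads of control 1 runs from 266 to 335, which covers counting error only. The change in Kasumi-1 less the change in NB4 was -1.07 (SE 0.17), the value for which the gene was chosen.

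**Figure D1:**
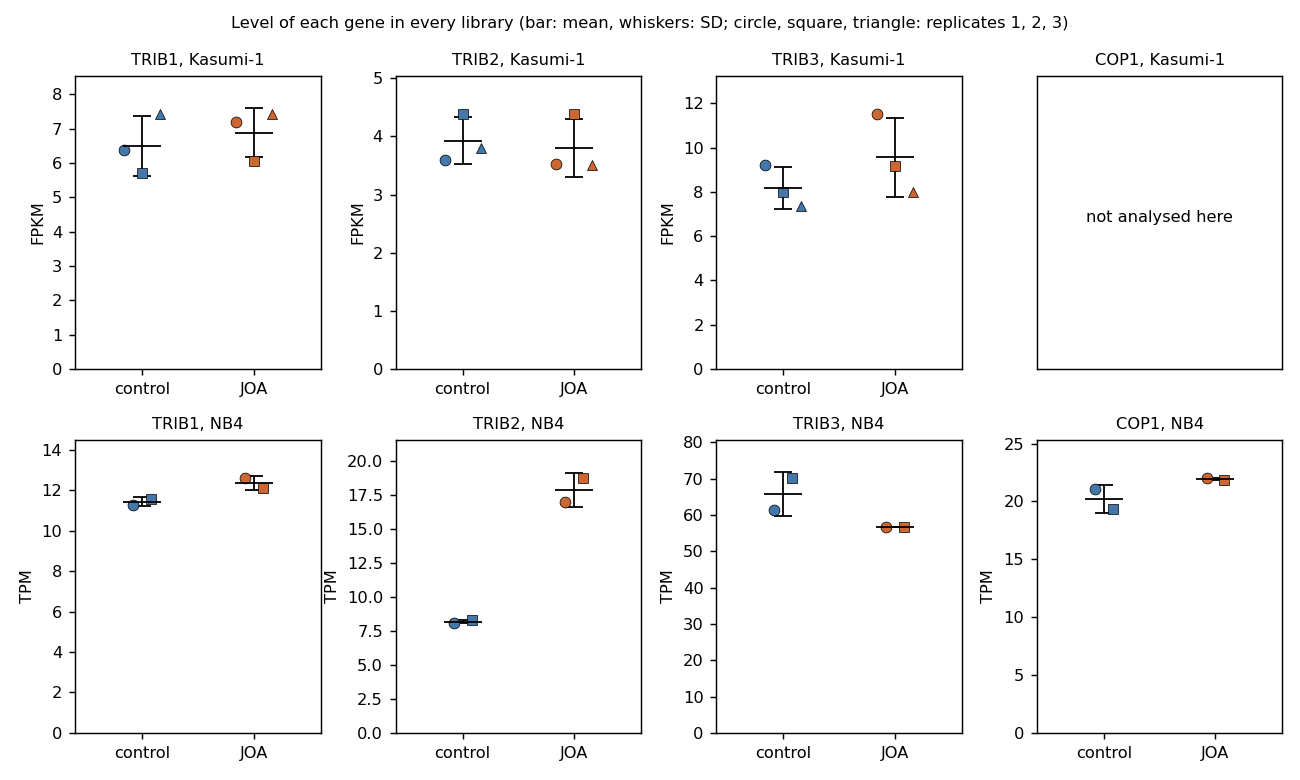
Levels of TRIB1, TRIB2 and TRIB3 in every library and of COP1 in the NB4 libraries, as FPKM in Kasumi-1 (top) and TPM in NB4 (bottom), on axes that start at 0, with controls in blue, JOA in orange, the mean as a bar and the SD as whiskers. TRIB2 in NB4 goes from about 8 to 16.9 and 18.7 TPM, while its 6 Kasumi-1 libraries lie between 3.50 and 4.39 FPKM.

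Among the 5768 genes tested in both lines, 8 had a log2 change of 1 or more in NB4, TRIB2 among them. Of these 8, TRIB2 and 1 other gene were within 0.1 of no change in Kasumi-1. TRIB2 was chosen for its difference between the lines, so its place in these counts is a description and no evidence. The difference fit called 14 of 7260 genes at an adjusted p under 0.05 (limma with Benjamini-Hochberg adjustment), which is 0.193%. Some sums of markers of other cells were higher in both JOA libraries of NB4, as were 32.5% of all NB4 genes tested. The summed level of 4 T cell markers was 26.4 to 27.8 TPM in controls and 32.2 to 47.8 TPM with JOA. Nearly all of it was CD3D, with CD3E and CD2 under 0.1 TPM in every library and CD3G at 0.447 TPM or less. The sum of 4 epithelial markers was 38.3 to 39.1 TPM in controls and 53.5 to 54.8 TPM with JOA, mostly KRT18 and EPCAM. EPCAM also stood at 33.1 to 44.4 FPKM over the Kasumi-1 libraries. The sums for B cells (5.84 to 5.97 against 6.22 to 7.02 TPM) and megakaryocytes (2.80 to 3.67 against 3.75 to 4.10 TPM) were small. Erythroid (0.583 TPM or less) and fibroblast markers (0.827 TPM or less) were near 0. Their part in the TRIB2 result was not tested. In such bulk samples more cells of a type and more RNA per cell cannot be told apart.

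**Figure D2:**
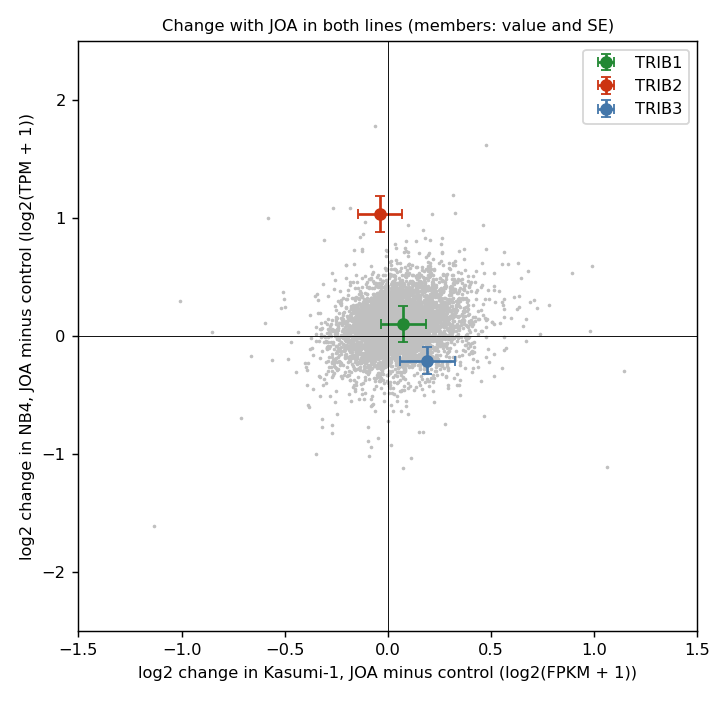
Log2 change with JOA in Kasumi-1 (x axis, log2(FPKM + 1)) and NB4 (y axis, log2(TPM + 1)) for the 5768 genes tested in both lines (grey), with TRIB1, TRIB2 and TRIB3 as coloured points with SE bars. TRIB2 lies near 0 on the x axis and at 1.03 on the y axis, while TRIB1 lies within the grey cloud and TRIB3 to its lower right.

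By transcript, the higher TRIB2 level in NB4 lay mostly in the full-length form that carries the COP1-binding motif. TRIB2-201, which spans chr2:12716889-12742734, stood at 5.54 and 4.63 TPM in controls and at 10.7 and 14.1 TPM with JOA, a log2 change of 1.13 (SE 0.21). TRIB2-203, the shorter form (chr2:12718238-12724825) whose coding end lacks the motif, stood at 1.30 and 1.27 TPM and at 2.32 and 1.86 TPM, a log2 change of 0.43 (SE 0.26). TRIB2-204, a processed transcript with no coding sequence (chr2:12716910-12717750), stood at 0.830 and 2.37 TPM and at 3.01 and 2.81 TPM, a log2 change of 0.65 (SE 0.37). The groups did not overlap in any of these 3 transcripts. Across all 51643 transcripts tested in NB4, groups did not overlap in 37.6%. TRIB2-202, which also carries the motif, was listed at 0 in control 2 and JOA 2, at 0.443 TPM in control 1 and at 0.938 TPM in JOA 1.

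Summed over the forms that carry the motif, the level was 5.31 ± 0.952 TPM in controls and 12.8 ± 1.73 TPM with JOA. These forms made up 73.8% and 56.0% of TRIB2 in the controls and 68.6% and 75.1% with JOA, so their share of the gene overlapped between the groups. The form without the motif went from 1.28 ± 0.0196 to 2.09 ± 0.329 TPM. The split of a gene into transcripts is the authors' estimate, and reads in shared exons do not say which form they came from.

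**Figure D3:**
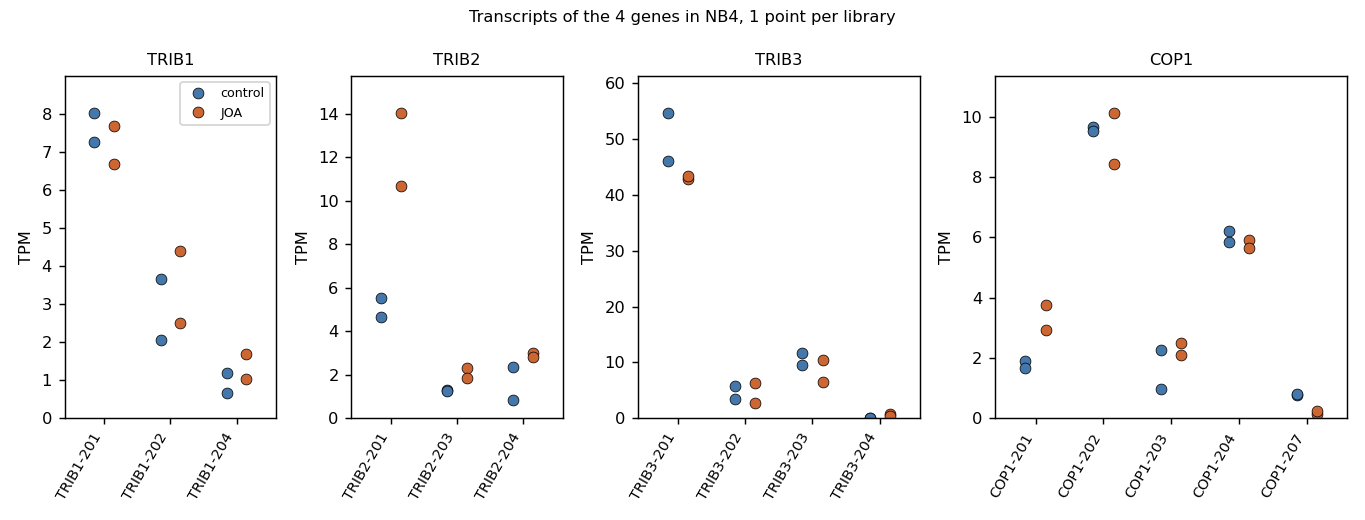
TPM of each transcript of the 4 genes with a mean of 0.5 TPM or more in either NB4 group, 1 point per library, controls in blue and JOA in orange. TRIB2-201 shows the widest gap between the groups, from 5.54 TPM or less to 10.7 TPM or more.

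TRIB1, the other family member that degrades C/EBPα, was not called in either line. In Kasumi-1 it stood at 6.37, 5.70 and 7.43 FPKM in controls and at 7.18, 6.06 and 7.42 FPKM with JOA. The groups overlapped, and library 2 was the lowest of each. Means were 6.50 ± 0.868 and 6.89 ± 0.727 FPKM (SD, n = 3), which is 0.07 on the log2 scale (SE 0.11, limma adjusted p = 0.772). In NB4 it stood at 11.3 and 11.6 TPM in controls and at 12.6 and 12.1 TPM with JOA. The groups did not overlap, as in 43.5% of all NB4 genes tested, and the log2 change was 0.10 (SE 0.15, limma adjusted p = 0.820). The changes of the lines differed by -0.03 (SE 0.17, limma adjusted p = 0.965), a value whose sign turned under 3 alternatives given below. Of its transcripts in NB4, TRIB1-201 went from 8.03 and 7.25 to 7.69 and 6.69 TPM (limma adjusted p = 0.958). TRIB1-202 stood at 2.05 and 3.66 TPM and at 2.51 and 4.40 TPM (limma adjusted p = 0.938). TRIB1-204, which has no coding sequence, had an adjusted p of 0.888. The 3 transcripts overlapped between the groups.

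TRIB3, the stress-induced member, had a positive change in Kasumi-1 and a negative one in NB4, and passed the test in neither. In Kasumi-1 it stood at 9.22, 7.97 and 7.36 FPKM in controls and at 11.5, 9.16 and 8.0 FPKM with JOA. The groups overlapped, but the JOA library was the higher in 3 of 3 same-numbered pairs, by log2 0.29, 0.18 and 0.11. Means were 8.19 ± 0.949 and 9.55 ± 1.79 FPKM (SD, n = 3), which is 0.19 on the log2 scale (SE 0.13, limma adjusted p = 0.512). Without JOA 1, the highest library, the change was 0.06. The reads behind these values were 573, 479 and 418 in controls and 657, 533 and 456 with JOA.

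In NB4 TRIB3 stood at 61.4 and 70.1 TPM in controls and at 56.7 and 56.6 TPM with JOA. Both JOA libraries lay below both controls, which held for 11% of all NB4 genes tested. The log2 change was -0.21 (SE 0.11, limma adjusted p = 0.557). The change in Kasumi-1 less that in NB4 was 0.40 (SE 0.19, limma adjusted p = 0.443). TRIB3-201, its main coding form, stood at 46.2 and 54.8 TPM in controls and at 42.9 and 43.4 TPM with JOA (limma adjusted p = 0.798). TRIB3-203 stood at 11.7 and 9.45 TPM and at 10.4 and 6.46 TPM, and TRIB3-202 at 3.45 and 5.83 TPM and at 2.71 and 6.37 TPM. Groups of the last 2 overlapped. TRIB3-204 lay at 0.715 TPM or less and was not tested.

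**Figure D4:**
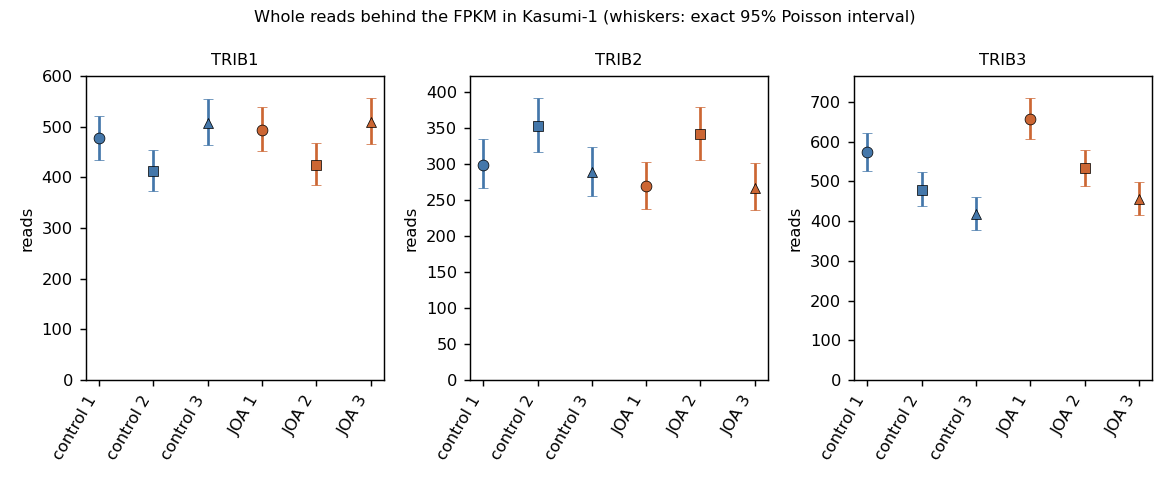
Whole reads that fit the FPKM of the 3 Tribbles genes in each Kasumi-1 library, with exact 95% Poisson intervals as whiskers, which cover counting error only. JOA 1 holds the most TRIB3 reads, 657, and the TRIB2 intervals of controls and JOA overlap in every same-numbered pair.

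COP1, the ligase itself, was measured in NB4 and not analysed here in Kasumi-1, where no row could be matched to its symbol. Only 37.5% of the Kasumi-1 rows were matched to any symbol, so this says nothing about its level there. In NB4 COP1 stood at 21.1 and 19.3 TPM in controls and at 22.0 and 21.9 TPM with JOA. The groups did not overlap, as in 43.5% of all NB4 genes tested, and the JOA libraries lay less than 1 TPM above control 1. The log2 change was 0.11 (SE 0.13, limma adjusted p = 0.773). Its main coding transcripts, COP1-202 and COP1-204, overlapped between the groups. COP1-202 stood at 9.66 and 9.52 TPM in controls and at 8.43 and 10.1 TPM with JOA, and COP1-204 at 5.84 and 6.22 TPM and at 5.91 and 5.64 TPM. COP1-201 stood at 1.91 and 1.67 TPM in controls and at 3.75 and 2.91 TPM with JOA, which is 0.63 on the log2 scale (SE 0.25, limma adjusted p = 0.739). COP1-203, a form marked for nonsense-mediated decay, overlapped. COP1-207, another such form, was at 0.759 and 0.792 TPM in controls and at 0.133 and 0.243 TPM with JOA, below the filter and so not tested.

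Within each line the order of the levels per length was as follows. In NB4 controls TRIB3 was the highest, then COP1, TRIB1 and TRIB2, with no overlap between neighbours in that order. With JOA, TRIB2 at 16.9 and 18.7 TPM lay above TRIB1 at 12.6 and 12.1 TPM, so this pair changed places. In Kasumi-1 controls TRIB3 and TRIB1 overlapped, with 7.36 to 9.22 and 5.70 to 7.43 FPKM, and both lay above TRIB2. With JOA the 3 genes did not overlap, in the order TRIB3, TRIB1 and TRIB2. Over all features tested, 33.8% of NB4 genes had a lower control level than TRIB2 and 82.4% had a lower one than TRIB3. In Kasumi-1 these shares were 35.9% and 58.3%.

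The partner and target genes come from 7 lists drawn up by role. The unpaired test called 0 of 12130 Kasumi-1 features (0%; 1986 were at an unadjusted p under 0.05) and 1 of 12941 NB4 genes (0.00773%; 1374 at an unadjusted p under 0.05), and that gene is in none of the lists. No gene of a list was called in the difference fit either. In Kasumi-1 same-numbered libraries deviate together, and a fit with the replicate number as a block called 990 features, 8.16% of those tested. Of these 990, 741 were higher with JOA. Calls named below as paired come from that fit, and 8.16% is the share to set beside them. No list was tested for enrichment. With any 1 of the 3 pairs left out the same fit in limma called 0, so no paired call was made without all 3 pairs. In these fits 2582 to 3180 features were at an unadjusted p under 0.05, and the lowest limma adjusted p was 0.0766 to 0.0975. A fit on 2 pairs also has less power, so the loss of calls does not show that a call rests on 1 pair. The median change over all features was 0.05 in Kasumi-1, with 61.9% positive, and 0.08 in NB4, with 66.2% positive.

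The genes of the COP1 ligase complex and of the COP9 signalosome, which removes NEDD8 from cullins, were called in neither line without pairing. In Kasumi-1, 8 of 19 were tested, 2 positive and 6 negative, with a median change of -0.04. COPS9, a small signalosome subunit, fell from 5.73 ± 0.522 to 3.80 ± 0.326 FPKM in the paired fit (limma adjusted p = 0.0365, and 0.115 unpaired). It was the 1 gene of the 8 whose JOA libraries lay below all controls, against 7.1% of all features. COPS6 went from 30.5 ± 0.985 to 34.5 ± 0.617 FPKM without passing (limma paired adjusted p = 0.0533). In NB4 all 19 were tested, 11 positive and 8 negative, with a median of 0.03. DDA1, a subunit beside DET1, went from 55.4 ± 1.53 to 66.2 ± 1.36 TPM (limma adjusted p = 0.458). DET1, the adaptor of COP1, stood at 8.14 ± 2.08 and 7.91 ± 0.925 TPM (limma adjusted p = 0.981). COPS9 stood at 88.3 ± 16.0 and 76.5 ± 0.141 TPM, and UBE2D1, a ubiquitin-conjugating enzyme, at 12.6 ± 0.750 and 14.1 ± 0.639 TPM.

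Among substrates and partners, CEBPA, the substrate best known in myeloid leukaemia, was not called in either line. It stood at 3.42 ± 0.196 and 3.44 ± 0.182 FPKM in Kasumi-1 (limma adjusted p = 0.974). In NB4 it stood at 57.7 ± 7.98 TPM in controls and 46.8 ± 0.994 TPM with JOA (limma adjusted p = 0.480). Both JOA libraries lay below both controls for CEBPA, as in 11% of all NB4 genes tested. CEBPB, its relative, rose from 4.17 ± 0.260 to 6.72 ± 0.887 FPKM in Kasumi-1 in the paired fit (limma adjusted p = 0.0327, and 0.115 unpaired). In NB4 CEBPB stood at 3.25 ± 1.78 and 2.79 ± 0.188 TPM. The change of CEBPB was not called as different between the lines (limma adjusted p = 0.407).

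Of this list 18 of 30 were tested in Kasumi-1, 14 positive and 4 negative, with a median of 0.12. The paired fit called 5, all higher, against 8.16% of all features in either direction: CEBPB, ETV5, SQSTM1, CDC25C and TRPC4AP. ETV5, an ETS factor that COP1 degrades, rose from 3.87 ± 1.40 to 7.26 ± 1.69 FPKM (limma paired adjusted p = 0.0260). SQSTM1, the autophagy receptor that TRIB3 binds, rose from 7.50 ± 0.498 to 12.4 ± 0.837 FPKM (limma paired adjusted p = 0.0278). In 6 of the 18 the JOA libraries lay above all controls, against 16% of all features. In NB4, 27 were tested, 20 positive and 7 negative, with a median of 0.13, and in 14 both JOA libraries lay above both controls, against 32.5% of all genes. ETV4, another ETS substrate of COP1, stood at 50.7 ± 1.95 and 68.0 ± 2.61 TPM (limma adjusted p = 0.291). FOXO4 stood at 7.93 ± 0.190 and 11.5 ± 2.41 TPM (limma adjusted p = 0.450). JUN, the AP-1 subunit that COP1 degrades, stood at 10.9 ± 0.275 and 9.62 ± 2.36 TPM, and MAP2K1, the MEK1 kinase that Tribbles proteins bind, at 28.9 ± 3.00 and 33.9 ± 4.20 TPM, with overlapping groups in both. STK40, a pseudokinase relative that also binds COP1, stood at 32.6 ± 0.0302 and 36.8 ± 2.95 TPM (limma adjusted p = 0.649).

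Of 28 myeloid genes under C/EBPα, 20 were tested in NB4, 9 positive and 11 negative, with a median of -0.01. PRTN3, which encodes proteinase 3 of the primary granules, stood at 199 ± 81.9 TPM in controls and 41.5 ± 0.613 TPM with JOA, a log2 change of -2.17 (limma adjusted p = 0.0948). CTSG, which encodes cathepsin G, stood at 366 ± 42.7 and 169 ± 69.2 TPM (log2 change -1.17, limma adjusted p = 0.201). FCN1, a monocyte lectin, went the other way, from 8.30 ± 1.39 to 14.7 ± 3.09 TPM (log2 change 0.75, limma adjusted p = 0.296). In 8 of the 20 both JOA libraries lay below both controls, against 11% of all genes. In 6 both lay above them, against 32.5% of all genes. In Kasumi-1, 9 of 28 were tested, 7 positive and 2 negative, with a median of 0.10. The paired fit called IL6R, higher with JOA at 2.87 ± 0.284 FPKM against 1.62 ± 0.0781 FPKM (limma paired adjusted p = 0.0311).

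The genes of ATF4 and CHOP, the factors that induce TRIB3, had medians near 0 in both lines. In Kasumi-1, 13 of 24 were tested, 9 positive and 4 negative, with a median of 0.02. ATF4 stood at 139 ± 7.31 and 140 ± 3.07 FPKM (limma adjusted p = 0.956). The paired fit called PPP1R15A, the stress-induced phosphatase subunit, from 7.31 ± 0.775 to 8.89 ± 1.22 FPKM (limma paired adjusted p = 0.0473). In NB4, 22 were tested, 11 positive and 11 negative, with a median of 0.01. ATF4 stood at 463 ± 20.9 and 500 ± 29.8 TPM (limma adjusted p = 0.714), and DDIT3, which encodes CHOP, at 20.9 ± 1.83 and 17.9 ± 1.68 TPM (limma adjusted p = 0.630). XBP1, of the unfolded protein response, stood at 115 ± 9.37 and 93.0 ± 2.60 TPM (limma adjusted p = 0.395). SESN2 stood at 5.35 ± 0.474 and 4.32 ± 0.273 TPM, and EIF2AK4, the kinase GCN2 upstream of ATF4, at 19.7 ± 2.53 and 23.4 ± 0.462 TPM. EIF2AK4 stood at 5.90 ± 0.241 and 6.23 ± 0.132 FPKM in Kasumi-1 (limma adjusted p = 0.628). Its groups did not overlap there, as in 23.1% of all features.

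Tribbles proteins also bind MEK1, and the feedback genes of that pathway had a median change of 0.21 over 8 of 17 in Kasumi-1 (7 positive, 1 negative) and of 0.15 over 16 in NB4 (11 positive, 5 negative). In Kasumi-1 the paired fit called 2 of the 8, both higher, against 8.16% of all features in either direction. EGR1, an immediate early factor, went from 2.23 ± 0.610 to 6.22 ± 1.96 FPKM (limma paired adjusted p = 0.0260). SPRED2, a brake on the pathway, went from 5.09 ± 0.430 to 6.63 ± 0.576 FPKM (limma paired adjusted p = 0.0349). In NB4 EGR1 stood at 48.8 ± 6.28 and 39.9 ± 9.47 TPM with overlapping groups. DUSP6, the ERK phosphatase, stood at 159 ± 3.38 and 223 ± 42.9 TPM (limma adjusted p = 0.316), FOSL1 at 21.9 ± 2.17 and 29.7 ± 3.83 TPM and CCND1 at 14.2 ± 0.303 and 10.9 ± 3.46 TPM.

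**Figure D5:**
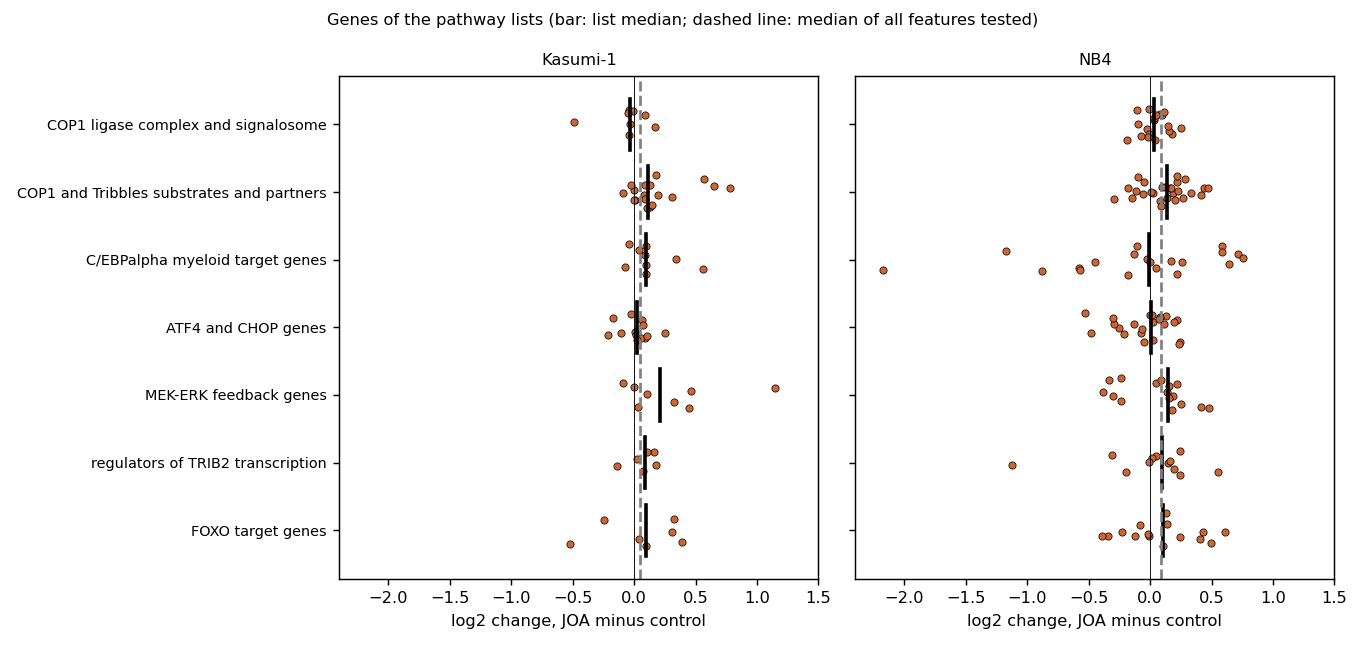
Log2 change with JOA of every tested gene of the 7 lists in Kasumi-1 (left) and NB4 (right), 1 point per gene with vertical scatter for legibility, the list median as a bar and the median of all features tested as a dashed line. The list medians lie between -0.04 and 0.21 in Kasumi-1 and between -0.01 and 0.15 in NB4, with PRTN3 the lowest point at -2.17.

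Of 14 factors listed as possible regulators of the TRIB2 gene, 12 were tested in NB4, 8 positive and 4 negative, with a median of 0.10. E2F1, which binds the TRIB2 promoter in other leukaemia cells, stood at 61.5 ± 2.72 and 49.4 ± 3.14 TPM (limma adjusted p = 0.409). Both JOA libraries were lower, as in 11% of all NB4 genes tested. In Kasumi-1 E2F1 stood at 19.0 ± 0.465 and 21.6 ± 1.98 FPKM (limma adjusted p = 0.299). All JOA libraries were higher there, as in 16% of all features. The difference of E2F1 between the lines was not called (limma adjusted p = 0.188). PBX3, a partner of HOXA9 and MEIS1, stood at 7.83 ± 0.274 and 12.2 ± 3.60 TPM in NB4 (limma adjusted p = 0.437). NOTCH1 stood at 14.1 ± 1.19 and 16.9 ± 0.683 TPM there, and at 13.0 ± 0.633 and 14.7 ± 0.750 FPKM in Kasumi-1. The largest change of the list in NB4 was that of MEF2C, with means of 3.18 TPM in controls and 0.858 TPM with JOA. Its log2 change was -1.12 (SE 0.36, limma adjusted p = 0.363), and both JOA libraries lay below both controls. In Kasumi-1 the MEF2C means were 18.5 and 19.5 FPKM with overlapping groups (limma adjusted p = 0.851). In Kasumi-1, 6 were tested, 5 positive and 1 negative, with a median of 0.09, and limma's paired fit called 0 of them.

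FOXO targets were counted because TRIB2 restrains FOXO factors. In NB4, 15 of 16 were tested, 8 positive and 7 negative, with a median of 0.10. CCNG2, an atypical cyclin, stood at 11.6 ± 0.312 and 18.2 ± 1.21 TPM (limma adjusted p = 0.267), GADD45A, a DNA damage gene, at 10.1 ± 0.135 and 14.6 ± 1.92 TPM (limma adjusted p = 0.371) and KLF6 at 11.8 ± 1.75 and 15.9 ± 1.83 TPM (limma adjusted p = 0.465). In Kasumi-1, 7 were tested, 5 positive and 2 negative, with a median of 0.09. The paired fit called 1 higher and 2 lower, against 8.16% of all features in either direction. KLF6 was higher, from 9.53 ± 0.105 to 12.03 ± 0.919 FPKM (limma paired adjusted p = 0.0382). TXNIP, an inhibitor of thioredoxin, was lower, from 56.3 ± 11.7 to 39.3 ± 9.47 FPKM (limma paired adjusted p = 0.0382). CAT, catalase, was also lower, from 67.7 ± 8.24 to 56.7 ± 4.25 FPKM (limma paired adjusted p = 0.0442). CCNG2 stood at 5.82 ± 0.974 and 7.49 ± 0.631 FPKM (limma paired adjusted p = 0.0635).

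Genes with a pattern like that of a member were ranked by Pearson's r over the 10 libraries, on log2(value + 1) centred on each line, among genes with a mean of 5 or more in both lines (3934 compared with TRIB2). The points share libraries and scaling, and no p is given. The closest to TRIB2 were HNRNPH2 (r = 0.94), LMBRD1 and CLINT1 (0.93 each), UBE2Q1 and ZMYM2 (0.92 each), BUB1B and ANAPC13 (0.92 each) and NCF4 (0.91). Their log2 changes were 0.22 to 0.64 in NB4 and -0.07 to 0.14 in Kasumi-1, so none reached the 1.03 of TRIB2. NCF4, a subunit of the phagocyte oxidase, stood at 13.4 and 21.3 TPM in NB4 control and JOA means. For TRIB1 the closest were SIRPA (0.95), RPA2 (0.93) and RNF10 (0.93), and for TRIB3 ENO1 (0.89), TIMM8A (0.86) and PLOD1 (0.86). Among the members r was 0.10 between TRIB1 and TRIB2, -0.10 between TRIB1 and TRIB3 and -0.44 between TRIB2 and TRIB3.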

How the data were processed

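The 10 libraries come from Trizol-extracted RNA and a stranded TruSeq mRNA preparation, per the labels. Of the read processing, Trimmomatic, HISAT2, Cufflinks, HTSeq and hg38 are named in the submitters' processing notes, without version or role. For Kasumi-1 the authors deposited FPKM, as the name of the file says, in 29050 rows that carry sequence records. A gene symbol was found for 10906 rows (37.5%), which gave 10802 symbols. For NB4 the deposited values were read as TPM, although the file name says FPKM, because every column sums to just under 1000000. The planned test had assumed FPKM there, and its log-scale model was kept. The 121005 NB4 transcripts (93.9% matched to GENCODE 29) were summed to 21961 genes, leaving 3.04% of the TPM unmatched.

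Fits within each line used limma 3.58.1 (R 4.3.3, Python 3.11.15) on log2(value + 1), a scale that understates changes at low levels, with a variance trend and no block, on features at 1 or more in at least 3 (Kasumi-1) or 2 (NB4) libraries. The responses of the lines were compared as a difference of differences over all 10 libraries. Calls used a Benjamini-Hochberg adjusted p under 0.05 over all features. The lack of calls in the NB4 transcript fit says little, since with 2 libraries per group that fit has little power. Whole reads in Kasumi-1 were recovered from the steps of low FPKM values: 7788 of 8742 low rows (89.1%) were whole within 0.02 of a read. The read numbers printed for a gene also need its length, taken as the value that makes its 6 libraries whole (within 0.0245 of a read for TRIB3, the largest deviation), and a depth that 188 of 800 rows agreed on, so they are estimates.

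Same-numbered Kasumi-1 libraries deviated together (r = 0.329, 0.499 and 0.423, and -0.06 or below for differently numbered ones), and the number was taken as a pair. This rests on the values and not on a label. Each group was centred on its own mean, so the negative values follow in part from the positive ones and are no separate evidence. In NB4 r was 0.0652, and the number was used only in the replicate-block alternative. With 2 libraries per group, centring forces every NB4 value to this size with either sign. The labels do not say whether replicates are separate cultures, and p-values therefore describe the spread among these libraries, which may be technical.

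The members and the 7 lists were chosen with earlier results of these data known, and TRIB2 for its difference between the lines. From the lists, CEBPA, CEBPB, DET1, STK40, MAP2K1, JUN, ATF4 and DDIT3 are named wherever tested, with list genes called in a fit and, per list and line, up to 3 of the largest changes among genes with no overlap of the groups and a mean of at least 5 in the higher one. CDC25C, TRPC4AP, IL6R, PPP1R15A and CAT were added after their paired calls were seen. MEF2C, whose means in NB4 lie under 5 TPM, was added after its change was seen. A gene that the rule also names is not reported here. Promoter sequence is from RefSeq (GRCh38.p14), and coding sequence and coordinates are from GENCODE on GRCh38. Alternatives were another pseudocount, no filter, median-ratio scaling, the replicate block, shared variance, rescaled tables, coding transcripts alone and each library left out; the paired fit without each pair was added after the data were seen.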

Additional observations from a re-analysis of the deposited data

Results flagged for a closer look

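The change of TRIB2 in Kasumi-1 less its change in NB4 was -1.07 on the log2 scale. Both NB4 libraries with JOA lay above both NB4 controls, as in 32.5% of all NB4 genes tested. In Kasumi-1 the groups overlapped, as in all but 23.1% of the features tested there. The gene was chosen for this difference, so it was not tested here.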

How the results depend on the processing

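The log2 change of TRIB2 ranged from 0.94 to 1.11 in NB4 over 10 alternatives, from -0.12 to 0.03 in Kasumi-1 over 14 and from -1.16 to -1.004 for the difference between the lines over 15. TRIB3 ranged from 0.06 to 0.30 in Kasumi-1 and from -0.31 to -0.11 in NB4, and COP1 from 0.02 to 0.17. TRIB1 turned sign in Kasumi-1 without control 2 (-0.0031, range without 1 library -0.0031 to 0.16). Its difference between the lines turned with median-ratio scaling (0.022), without Kasumi-1 control 3 (0.057) and without Kasumi-1 JOA 2 (0.048), with a range of -0.11 to 0.057 without 1 library. The cause was not tested.

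Counts of called genes moved more. In Kasumi-1 the count of 0 became 990 with the replicate block (0 without any 1 of its 3 pairs) and 4 with shared variance, and was 0 to 1 without 1 library (1 without JOA 2). In NB4 the count of 1 became 0 with a pseudocount of 0.1, with no filter, with median-ratio scaling and without any 1 library, 146 with the replicate block, 156 with shared variance and 13 with coding transcripts alone. The count of 14 for the difference between the lines became 2 with a pseudocount of 0.1, 38 with no filter, 36 with the replicate block and 2 with rescaled tables. It was 2 to 111 without 1 library: 2 without Kasumi-1 control 1, 3 to 9 without another Kasumi-1 library, 111 without NB4 control 1 and 40 to 56 without another NB4 library. Of the transcripts in NB4, limma called 0 of 51643 as reported (3469 at an unadjusted p under 0.05, lowest adjusted p = 0.295), and 0 under all 8 alternatives run, which tested 51303 to 108812. The block changed no call of TRIB1, TRIB3 or COP1; for TRIB3 its adjusted p was 0.0836 in Kasumi-1 and 0.140 for the difference. In NB4, where libraries share only a number, the block called MPO, PRTN3 and CTSG of the lists, all lower. With 2 libraries per group and unknown depth, NB4 limits what could be called.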
